A study of Mus musculus with 11 samples.

Results

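Toll-like receptors are sensors of microbial and self molecules, and their adaptors carry the signal to NF-κB and to interferon regulatory factors. The 10 genes described here were chosen by name from the 26283 genes of the count table: 7 receptors (*Tlr1*, *Tlr2*, *Tlr3*, *Tlr4*, *Tlr7*, *Tlr9* and *Tlr13*), the adaptors *Myd88* and *Ticam1*, and *Unc93b1*. TLR1, TLR2 and TLR4 sit mainly at the cell surface, where TLR1 pairs with TLR2 to sense lipoproteins and TLR4 senses lipopolysaccharide. TLR3, TLR7, TLR9 and TLR13 sense nucleic acids inside endosomes and reach them with the chaperone UNC93B1. MYD88 serves all of these receptors except TLR3, whereas TICAM1, also called TRIF, serves TLR3 and internalized TLR4. In tumors, much of this machinery is known from macrophages and dendritic cells, while epithelial cells carry part of it.

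The RNA came from mammary tumors of C57BL/6 mice aged 18 weeks, 6 of them PyMT *Pcbp1*–/– and 5 PyMT *Pcbp1*+/+. The mice of both groups carried MMTV-PyMT, a viral oncogene, and MMTV-Cre, both driven by a promoter active in mammary epithelium; PyMT *Pcbp1*–/– mice had floxed *Pcbp1* alleles and PyMT *Pcbp1*+/+ mice had non-floxed ones. Deletion is therefore directed at epithelial cells, and the macrophages and other stromal cells of a tumor are not targeted by design. Counts per tumor summed to between 11239931 and 14092192 in PyMT *Pcbp1*–/– and between 10543189 and 11411776 in PyMT *Pcbp1*+/+ tumors, so that 3 counts corresponded to between 0.213 and 0.285 CPM (counts scaled to the same total in every tumor).

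*Pcbp1* itself was measured first as a check of the labels. It ran from 15.4 to 33.6 CPM (median 20.9) across the PyMT *Pcbp1*–/– group, while PyMT *Pcbp1*+/+ replicates 1 to 5 read 268, 271, 225, 220 and 259 CPM, without overlap. Its log2 fold change was -3.43 (standard error 0.19, edgeR adjusted p = 4.72e-06). The tumors also carried their labelled tissue: 9 luminal mammary epithelial markers, *Cdh1* among them, summed to 1896 ± 403 CPM (SD, n = 6) in PyMT *Pcbp1*–/– and 1894 ± 276 CPM (SD, n = 5) across the PyMT *Pcbp1*+/+ group.

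None of the 10 genes passed the test between genotypes. All 10 passed the filter on low counts, and edgeR called 0 of them lower and 0 of them higher (adjusted p under 0.05), where 1.66% of the 19232 genes tested were lower and 0.608% higher. At an unadjusted p under 0.05, 0 of the 10 were called in either direction, beside 10.5% of all genes lower and 8.19% higher. DESeq2 called 0 of the 10, with 0 at an unadjusted p under 0.05, where among all genes it called 3.76% lower and 2.51% higher, with 10.3% and 9.09% at the unadjusted threshold. Limma-voom called 0 of the 10, with 1 at an unadjusted p under 0.05 (*Tlr9*, lower), beside 6.19% of all genes called lower and 5.03% higher and 15.3% and 15.0% at the unadjusted threshold. The groups overlapped in CPM for each of the 10, whereas among all genes 2.02% had every PyMT *Pcbp1*–/– value below and 1.27% every value above the PyMT *Pcbp1*+/+ values. Log2 fold changes ran from -0.61 (*Tlr9*) to 0.31 (*Tlr7*), 6 negative and 4 positive, with a median of -0.04 beside a median of -0.0001234 over all genes tested. The 95% intervals bound these differences unequally and were widest for *Tlr1*, *Tlr7* and *Tlr9*, followed by *Unc93b1*.

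**Figure D1:**
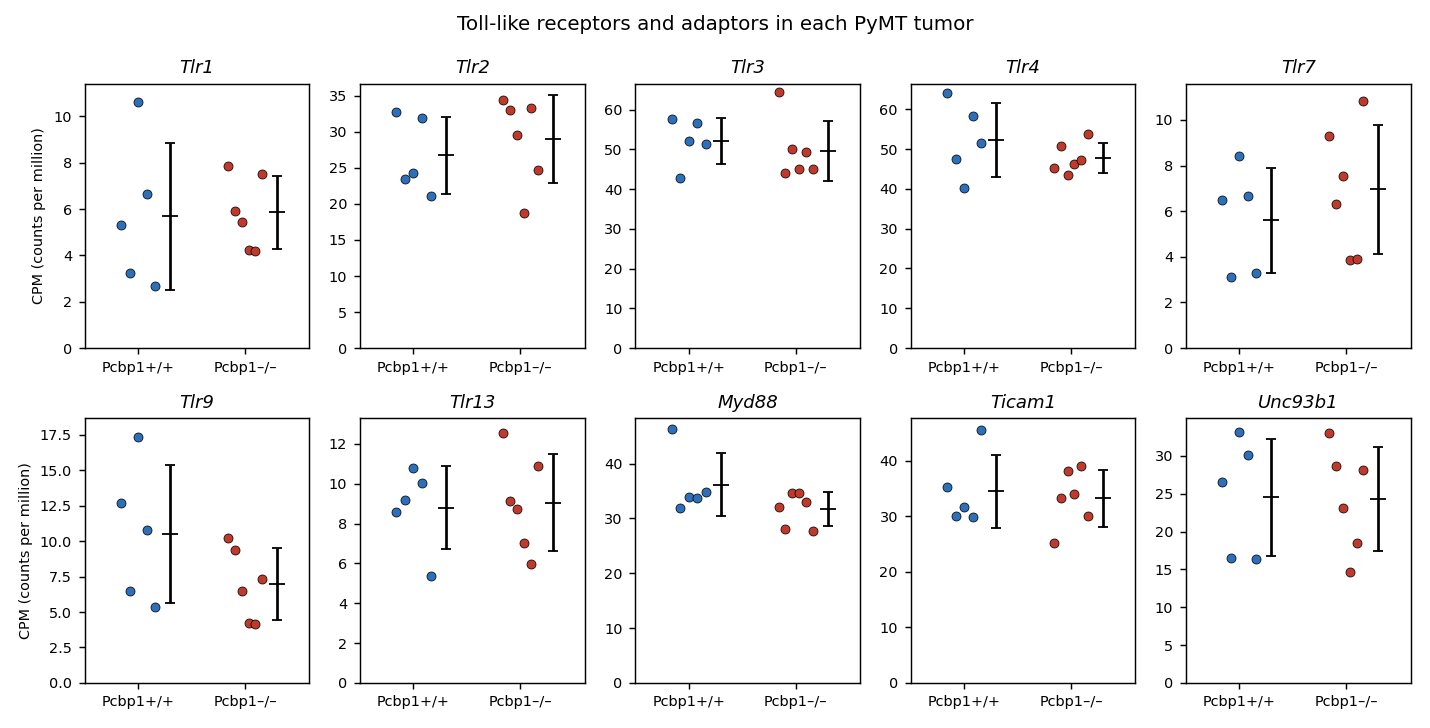
Deposited CPM (y axis, starting at 0) of the 10 genes in 5 PyMT *Pcbp1*+/+ tumors (blue) and 6 PyMT *Pcbp1*–/– tumors (red), in replicate order from left to right. Each point is a tumor and the bars are mean ± SD; the groups overlap in every panel, and *Tlr9* has its highest value, 17.3 CPM, in PyMT *Pcbp1*+/+ replicate 3.

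Levels were compared between genes per kilobase of exon, with each length the union of all exons of the gene in GENCODE. The annotation used for counting is not given, so the order of genes holds for these lengths only. Over the 11 tumors, *Ticam1* had the highest level at 11.3 ± 1.86 CPM per kilobase (SD, n = 11), followed by *Tlr3* at 9.49 ± 1.24, *Myd88* at 8.68 ± 1.25 and *Tlr4* at 7.11 ± 0.981 CPM per kilobase. *Tlr2* at 5.08 ± 1.02 and *Unc93b1* at 3.91 ± 1.11 CPM per kilobase came next. The remaining receptors were lower, with 2.47 ± 1.15 for *Tlr9*, 1.89 ± 0.458 for *Tlr13*, 1.71 ± 0.679 for *Tlr1* and 1.20 ± 0.486 CPM per kilobase for *Tlr7*. The ranges of neighbours in this order overlapped in every case. Within single tumors the order was firmer for some neighbours: *Tlr4* exceeded *Tlr2*, *Unc93b1* exceeded *Tlr9* and *Tlr1* exceeded *Tlr7* in 11 of 11 tumors, while *Tlr9* exceeded *Tlr13* in 7 of 11. The spread between tumors differed as well, with a coefficient of variation of CPM of 13.1% for *Tlr3*, 13.8% for *Tlr4* and 14.5% for *Myd88* but 46.7% for *Tlr9*, 40.6% for *Tlr7* and 39.7% for *Tlr1*.

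Among the surface receptors, *Tlr4* (ENSMUSG00000039005.13, chromosome 4 of GRCm38, 66827584 to 66930284, plus strand) ran from 43.6 to 53.8 CPM (median 46.7) across the PyMT *Pcbp1*–/– group. PyMT *Pcbp1*+/+ replicates 1 to 5 read 64.0, 47.4, 40.3, 58.4 and 51.5 CPM. The PyMT *Pcbp1*+/+ tumors thus held both the lowest and the highest value, and the log2 fold change was -0.12 with a 95% interval from -0.33 to 0.09 (edgeR adjusted p = 0.526). *Tlr2* (ENSMUSG00000027995.10, chromosome 3, 83836272 to 83841767, minus strand) ranged from 18.8 to 34.3 CPM in PyMT *Pcbp1*–/– and from 21.1 to 32.8 CPM in PyMT *Pcbp1*+/+ tumors, for a log2 fold change of 0.12 (-0.21 to 0.46). *Tlr1* (ENSMUSG00000044827.10, chromosome 5, 64924679 to 64933563, minus strand), the partner of *Tlr2*, had between 4.19 and 7.86 CPM and between 2.68 and 10.6 CPM. Its log2 fold change of 0.02 had an interval from -0.70 to 0.74, so that sizeable differences of either sign lay within it.

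Of the endosomal receptors, 1 was abundant and the others were sparse. *Tlr3* (ENSMUSG00000031639.12, chromosome 8, 45395665 to 45411080, minus strand), the sensor of double-stranded RNA, had 49.7 ± 7.61 CPM in the 6 PyMT *Pcbp1*–/– and 52.1 ± 5.83 CPM in the 5 PyMT *Pcbp1*+/+ tumors (SD), for a log2 fold change of -0.07 with an interval from -0.31 to 0.17. *Tlr7* (ENSMUSG00000044583.13, X chromosome, 167304929 to 167330558, minus strand), which senses single-stranded RNA, ranged from 3.88 to 10.8 CPM and from 3.13 to 8.41 CPM, a log2 fold change of 0.31 (-0.42 to 1.03). That value moved to 0.55 without PyMT *Pcbp1*+/+ replicate 3 and to 0.12 without PyMT *Pcbp1*–/– replicate 6. *Tlr13* (ENSMUSG00000033777.4, X chromosome, 106143204 to 106160493, plus strand), a mouse sensor of bacterial ribosomal RNA, ranged from 5.96 to 12.6 CPM and from 5.36 to 10.8 CPM, a log2 fold change of 0.04 (-0.42 to 0.50). The chaperone gene *Unc93b1* (ENSMUSG00000036908.16, chromosome 19, 3935186 to 3949340, plus strand) averaged 24.3 ± 6.91 CPM in 6 and 24.5 ± 7.77 CPM in 5 tumors (SD), with a fold change on the log2 scale of -0.02 (-0.54 to 0.50).

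*Tlr9* (ENSMUSG00000045322.10, chromosome 9, 106222598 to 106226883, plus strand), the sensor of CpG-containing DNA, ran from 4.19 to 10.3 CPM (median 6.92) across the PyMT *Pcbp1*–/– group. PyMT *Pcbp1*+/+ replicates 1 to 5 read 12.7, 6.45, 17.3, 10.8 and 5.36 CPM. The highest 3 values were all from PyMT *Pcbp1*+/+ tumors, yet replicates 2 and 5 of that group lay within the PyMT *Pcbp1*–/– range. The log2 fold change of -0.61 (standard error 0.32, 95% interval -1.31 to 0.10) did not pass the test (edgeR adjusted p = 0.336), and without PyMT *Pcbp1*+/+ replicate 3 it was -0.30 (edgeR adjusted p = 0.663). It was -0.76 without PyMT *Pcbp1*+/+ replicate 5 (edgeR unadjusted p = 0.0325, adjusted p = 0.206). Without PyMT *Pcbp1*+/+ replicate 2 it was -0.74 (edgeR unadjusted p = 0.0436, adjusted p = 0.234). Without PyMT *Pcbp1*–/– replicate 1 it was also -0.74 (edgeR unadjusted p = 0.0487, adjusted p = 0.264). Limma-voom with sample quality weights gave -0.98 (unadjusted p = 0.00603, adjusted p = 0.0514), so that the size of the difference depended on the method and on the tumors included.

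For the adaptors the coefficient of variation of CPM over the 11 tumors was 14.5% (*Myd88*) and 16.5% (*Ticam1*). Both lay slightly above *Tlr3* (13.1%) and *Tlr4* (13.8%). *Myd88* (ENSMUSG00000032508.8, chromosome 9, 119335934 to 119341411, minus strand) ran from 27.7 to 34.7 CPM (median 32.6) across the PyMT *Pcbp1*–/– group, while PyMT *Pcbp1*+/+ replicates 1 to 5 read 46.4, 32.0, 33.9, 33.8 and 34.8 CPM. Only replicate 1 of PyMT *Pcbp1*+/+ stood apart, and the log2 fold change was -0.19 (-0.41 to 0.04, edgeR adjusted p = 0.365). *Acaa1a* overlaps *Myd88* on the opposite strand and had a log2 fold change of -0.43 (edgeR adjusted p = 0.0132). The estimated count of *Myd88* was not whole (over 1e-06 from an integer) in 11 of 11 tumors, and how reads shared by overlapping genes were assigned is not known. By the same tolerance *Tlr3* counts were not whole in 7 tumors and *Unc93b1* counts in 1, by 0.001 in that tumor for *Unc93b1* and by up to 0.495 for *Tlr3*, while those of *Tlr1*, *Tlr2*, *Tlr4*, *Tlr7*, *Tlr9*, *Tlr13* and *Ticam1* were whole in all. *Ticam1* (ENSMUSG00000047123.8, chromosome 17, 56269319 to 56276786, minus strand) ranged from 25.2 to 39.0 CPM and from 29.9 to 45.6 CPM, a log2 fold change of -0.06 (-0.39 to 0.28).

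Tumors of the same genotype also differed from each other, and *Tlr1*, *Tlr7*, *Tlr9*, *Tlr13* and *Unc93b1* varied together. PyMT *Pcbp1*–/– replicates 4 and 5 and PyMT *Pcbp1*+/+ replicates 2 and 5 were low for *Tlr1*, *Tlr7*, *Tlr9* and *Unc93b1*. As a description, over 11 tumors and after subtracting each group's own mean of log2(CPM + 1), the Pearson correlation was 0.945 between *Tlr9* and *Unc93b1* and 0.918 between *Tlr7* and *Unc93b1*, and it was at least 0.801 in each of the 10 pairs among these 5 genes. *Tlr3*, *Tlr2*, *Tlr4* and *Myd88* stood outside this cluster, with at most 0.624 (*Tlr2* and *Unc93b1*) in any pair with one of the 5. *Ticam1* had negative correlations with all 5, at -0.893 with *Tlr13* and between -0.618 and -0.530 with the other 4.

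The same 5 genes followed the macrophage markers. The 12 listed markers summed to between 330 and 625 CPM (median 461) across the PyMT *Pcbp1*–/– group and to 385, 238, 457, 327 and 204 CPM, in replicate order, in the PyMT *Pcbp1*+/+ group. Relations of the 10 genes to this sum were computed within genotype (log2 scale, group means subtracted, 11 tumors), with 2-sided exact permutation tests over the 86400 orders of tumors within groups and p-values not adjusted for the 10 relations. *Tlr9* had r = 0.944 (exact permutation p = 0.000312) and rho = 0.873 (p = 0.00212). *Unc93b1* had r = 0.922 (exact permutation p = 0.000417) and rho = 0.882 (p = 0.00227). *Tlr1* had r = 0.924 (exact permutation p = 0.000637) and rho = 0.900 (p = 0.00156), and *Tlr7* had r = 0.911 (p = 0.000498) and rho = 0.864 (p = 0.000845). *Tlr13* had r = 0.807 (exact permutation p = 0.00253) and rho = 0.791 (p = 0.00682). Without the 2 tumors farthest from the median of the marker sum on this scale (log2, group means subtracted), PyMT *Pcbp1*+/+ replicate 5 and PyMT *Pcbp1*–/– replicate 4, r was 0.909 for *Tlr9*, 0.878 for *Unc93b1*, 0.897 for *Tlr1*, 0.882 for *Tlr7* and 0.651 for *Tlr13*. Other markers moved with these genes too: the 6 conventional dendritic cell markers summed to 24.8, 27.5, 14.6, 17.1, 12.6 and 26.2 CPM, in replicate order, across the PyMT *Pcbp1*–/– group and to 22.8, 16.2, 26.1, 25.2 and 17.5 CPM across the PyMT *Pcbp1*+/+ group. They were low in PyMT *Pcbp1*–/– replicates 4 and 5 and PyMT *Pcbp1*+/+ replicates 2 and 5, and also in PyMT *Pcbp1*–/– replicate 3. Adipocyte markers summed to 17.5, 6.00, 0.534, 1.97, 0.497 and 17.2 CPM across the PyMT *Pcbp1*–/– group. Across the PyMT *Pcbp1*+/+ group they summed to 3.56, 1.42, 37.8, 8.11 and 6.16 CPM. Luminal markers were lowest in PyMT *Pcbp1*–/– replicate 1 (1296 CPM), where *Tlr9* was highest in that group, and highest in replicate 5 (2489 CPM), where *Tlr9* was lowest. In PyMT *Pcbp1*+/+ tumors the lowest luminal sum was in replicate 2, where *Tlr9* was also low. The part of these lists in the result was not tested. In the whole tumor, more macrophages and more RNA of these genes per macrophage cannot be told apart.

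The other 5 genes had weaker relations, none with an unadjusted p under 0.05. *Tlr4* had r = -0.0461 (exact permutation p = 0.914) and rho = -0.0182 (p = 0.975), and *Myd88* had r = 0.105 (p = 0.830) and rho = -0.0455 (p = 0.904). *Tlr3* had r = 0.576 (exact permutation p = 0.0717) and rho = 0.600 (p = 0.0714), *Tlr2* had r = 0.543 (p = 0.0943) and rho = 0.555 (p = 0.119), and *Ticam1* had r = -0.586 (p = 0.0783) and rho = -0.500 (p = 0.153). The luminal epithelial markers moved with *Ticam1* in the PyMT *Pcbp1*–/– group: they summed to 1296, 1650, 2066, 1999, 2489 and 1873 CPM in replicate order, where *Ticam1* had 25.2, 33.3, 38.2, 34.0, 39.0 and 30.1 CPM. Across the PyMT *Pcbp1*+/+ group they summed to 2158, 1536, 1664, 2070 and 2042 CPM, where *Ticam1* had 35.4, 30.1, 31.6, 29.9 and 45.6 CPM. Their part in the result was not tested. Without the same 2 tumors, r was 0.646 for *Tlr3*, about that of *Tlr13*, 0.104 for *Tlr2*, 0.251 for *Myd88*, -0.119 for *Tlr4* and -0.375 for *Ticam1*. Against the sum without *Lyz2*, r was -0.736 for *Ticam1*, 0.530 for *Tlr3* and 0.905 for *Tlr13*. The line between the 5 genes and the others is thus not sharp.

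**Figure D2:**
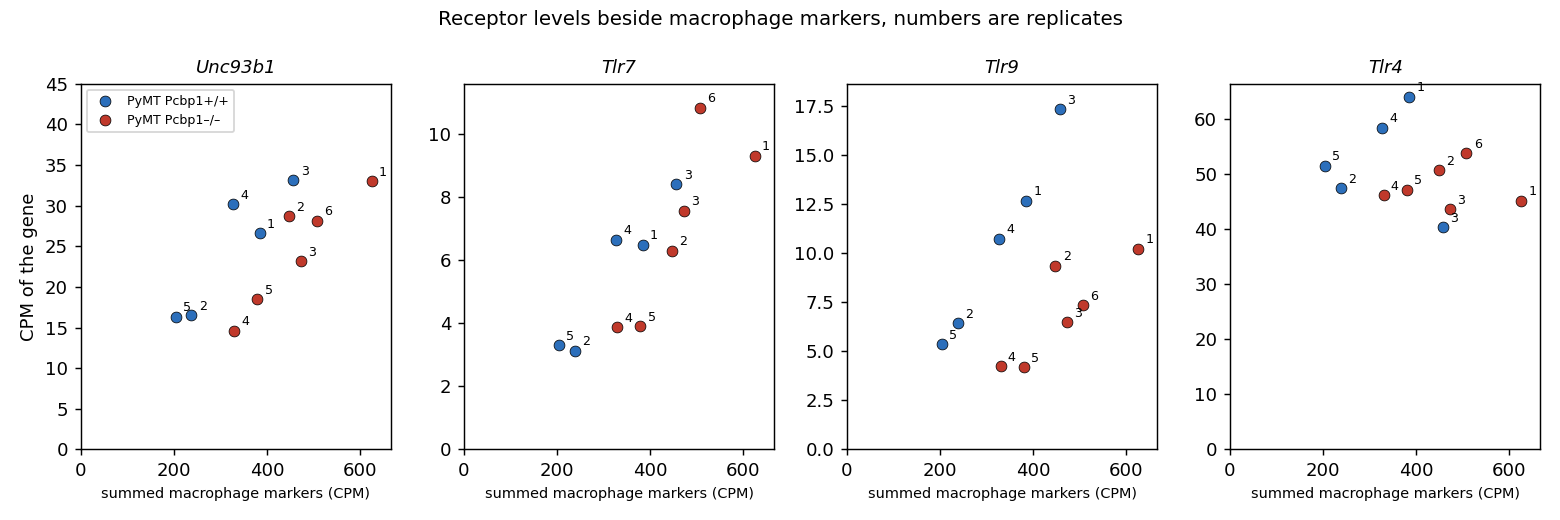
CPM of *Unc93b1*, *Tlr7*, *Tlr9* and *Tlr4* (y axes, starting at 0) against the summed CPM of 12 macrophage markers (x axis) in 5 PyMT *Pcbp1*+/+ tumors (blue) and 6 PyMT *Pcbp1*–/– tumors (red), each point a tumor with its replicate number. *Unc93b1* and *Tlr7* climb with the markers, *Tlr4* does not, and for *Tlr9* the PyMT *Pcbp1*–/– points lie under the PyMT *Pcbp1*+/+ points at like marker levels.

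The protein-coding genes most like each gene over the 11 tumors, by the same within-group correlation and out of 13666 others, are listed as a description. *Unc93b1* was closest to *Csf1r* (0.967), the receptor for macrophage colony-stimulating factor, *Il10ra* (0.965) and *Pld4* (0.958). *Tlr9* was closest to *Inpp5d* (0.979), *Cyth4* (0.977) and *Cybb* (0.972), the last a subunit of the phagocyte NADPH oxidase. *Tlr1* was closest to *Ptprc* (0.976), the gene of the pan-leukocyte antigen CD45, *Marchf1* (0.969) and *Arhgap15* (0.966). *Tlr7* was closest to *Abca9* (0.958), *Ccl8* (0.957) and the macrophage mannose receptor gene *Mrc1* (0.955), and *Tlr13* to *Pid1* (0.968), *Col5a3* (0.939) and *Lrrc25* (0.938).

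The other 5 genes had these neighbours. *Tlr3* was closest to *Itgb1* (0.941), an integrin subunit gene, *Igf2r* (0.928) and *Rfwd2* (0.916). *Tlr4* was closest to *Zkscan5* (0.948), *Pak3* (0.941) and *Cgrrf1* (0.932), and *Tlr2* to *Tmem254c* (0.932), *Col9a2* (0.904) and *Uba1* (0.903). *Myd88* was closest to *Lonrf1* (0.927), *Atxn7l3b* (0.898) and *Borcs6* (0.890), and *Ticam1* to *Ntan1* (0.965), *Mocs1* (0.945) and *Mydgf* (0.945).

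No macrophage marker passed the test between the genotypes, and the sums overlapped. The sum was 461 ± 103 CPM (SD, n = 6) in PyMT *Pcbp1*–/– and 322 ± 104 CPM (SD, n = 5) across the PyMT *Pcbp1*+/+ group, a gap carried largely by *Lyz2*. Of the 12 markers, 11 had a positive log2 fold change, beside 9613 of all 19232 genes tested. At an adjusted p under 0.05 (edgeR) 0 of the 12 were called. At an unadjusted p under 0.05, 2 were higher, beside 8.19% of all genes. The most abundant, the lysozyme gene *Lyz2*, had 193 ± 36.9 and 94.4 ± 41.3 CPM, a log2 fold change of 1.02 (edgeR adjusted p = 0.0657). It made up between 38.4% and 46.1% of the sum in PyMT *Pcbp1*–/– and between 20.6% and 33.6% in PyMT *Pcbp1*+/+ tumors. These shares did not overlap, so the sum with *Lyz2* holds a component that differed between the groups. None of the 12 was at 0.

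With the log2 of this sum as a covariate, *Tlr9* was lower in PyMT *Pcbp1*–/– tumors, with a log2 fold change of -1.32 (standard error 0.17, edgeR adjusted p = 0.00324). It was the 1 gene of the 10 that was called, beside 1.83% of all genes lower and 0.806% higher in that fit. There 9 of the 10 had a negative log2 fold change, beside a median of -0.00151 over all genes tested. *Unc93b1* moved the same way, to -0.57 (edgeR unadjusted p = 0.00211, adjusted p = 0.0645), as did *Tlr1*, to -0.63 (edgeR unadjusted p = 0.00961, adjusted p = 0.118). With *Tlr9* they were the 3 of the 10 genes at an unadjusted p under 0.05, all lower, where that fit had 10.5% of all genes lower and 10.4% higher. The sum averaged 461 CPM in PyMT *Pcbp1*–/– and 322 CPM in PyMT *Pcbp1*+/+ tumors. Such a covariate by itself shifts genes that rise with it downward in the fit. The part of this in the shifts was not tested. With 1 choice changed at a time, the adjusted p of *Tlr9* ran from 0.00324 to 0.663. With the covariate and each tumor left out in turn, a choice made once the data had been seen, *Tlr9* stayed between -1.44 and -1.20 on the log2 scale and its edgeR adjusted p between 0.00105 and 0.0388. Because *Lyz2* weighs so much, a sum without it was also used, again a choice made once the data had been seen. *Tlr9* then had a log2 fold change of -0.89 (edgeR adjusted p = 0.00979), the only 1 of the 10 genes called, beside 2.21% of all genes lower and 1.25% higher. In that fit *Unc93b1* had -0.25 (edgeR adjusted p = 0.255) and *Tlr1* -0.20 (edgeR adjusted p = 0.579).

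Ratios within each tumor show the same *Tlr9* values without a model. Those to the marker sums reuse the sums of the covariate fits and are not separate support for these fits. *Tlr9* had 1.49 ± 0.344 CPM per 100 CPM of macrophage markers (SD, n = 6) in PyMT *Pcbp1*–/– tumors, from 1.10 to 2.09, and 3.14 ± 0.483 (SD, n = 5) in PyMT *Pcbp1*+/+ tumors, at 3.30, 2.71, 3.80, 3.29 and 2.62 in replicates 1 to 5. These ratios did not overlap, but the share of all genes without overlap in such a ratio was not computed. The sum averaged 461 CPM in PyMT *Pcbp1*–/– and 322 CPM in PyMT *Pcbp1*+/+ tumors. A gene of equal CPM in both groups would thus have lower ratios, on average, in PyMT *Pcbp1*–/– tumors. Without *Lyz2* in the sum the ratios nearly met, with at most 3.397 in PyMT *Pcbp1*–/– and at least 3.413 in PyMT *Pcbp1*+/+ tumors, and the ratio of *Tlr9* to *Unc93b1* was at most 0.326 and at least 0.328. The ratios were chosen after the values were seen and carry no test.

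**Figure D3:**
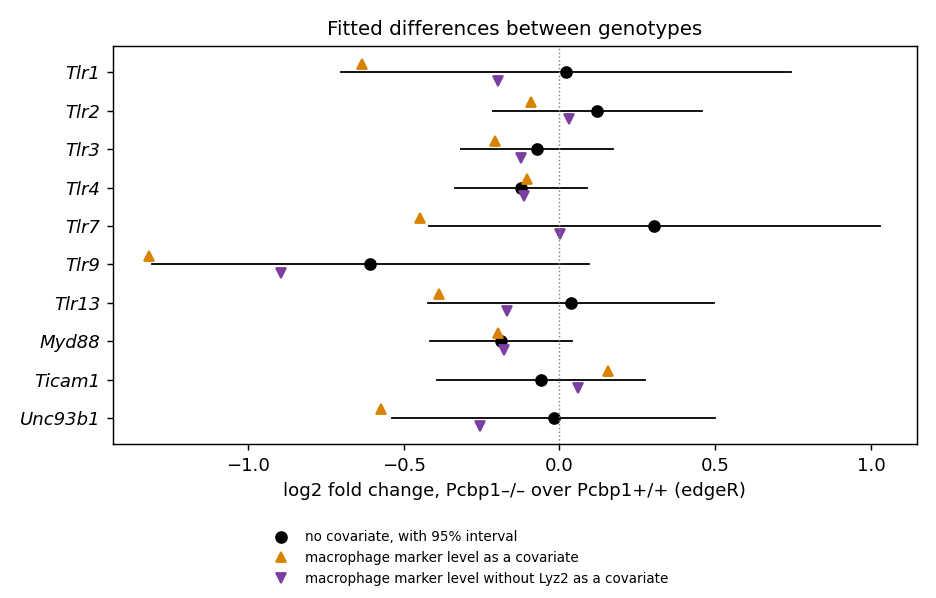
Log2 fold change (x axis, PyMT *Pcbp1*–/– over PyMT *Pcbp1*+/+, edgeR, 6 and 5 tumors) of the 10 genes without a covariate (black points with 95% intervals) and with the macrophage marker sum as a covariate, with *Lyz2* (orange) and without it (purple). All 10 black intervals include 0, and *Tlr9* lies at -1.32 and -0.89 with the covariates.

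Markers of other cells known to carry *Tlr9* were also measured. The 6 conventional dendritic cell markers, led by *Zbtb46*, summed to 20.5 ± 6.47 CPM (SD, n = 6) and 21.6 ± 4.49 CPM (SD, n = 5), with 0 of 4 tested called (edgeR; 1 lower at an unadjusted p under 0.05). *Zbtb46*, at 13.4 and 12.4 CPM, carried the near-equal sums. *Clec9a* had 0.659 and 1.68 CPM (log2 fold change -1.36, edgeR adjusted p = 0.105), *Itgax* 4.13 and 5.37, *Flt3* 0.253 and 0.523, *Xcr1* 0.673 and 0.880, and *Cd209a* 1.34 and 0.716 CPM. Of the plasmacytoid dendritic cell markers, *Siglech* had 0.709 ± 0.704 and 0.937 ± 0.666 CPM, and the list summed to 9.12 ± 3.07 and 8.75 ± 4.09 CPM, led by *Ccr9*, whose log2 fold change was 0.11 (edgeR adjusted p = 0.867). *Cd79b*, the 1 B cell marker analysed here, had 0.371 ± 0.242 and 0.328 ± 0.140 CPM, close to the level of 3 counts. T cell markers summed to 4.92 ± 1.52 and 5.38 ± 2.60 CPM, led by *Cd8a*, and neutrophil markers to 2.99 ± 1.21 and 3.75 ± 2.88 CPM, led by *Csf3r*. The part of these cells in the *Tlr9* difference was not tested.

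Non-immune markers gave the frame in which *Tlr3*, *Tlr4* and the adaptors were measured. Fibroblast markers summed to 480 ± 127 and 403 ± 119 CPM, led by *Col1a1*, endothelial markers to 53.1 ± 15.4 and 62.2 ± 12.4 CPM, led by *Cdh5*, basal epithelial markers to 188 ± 66.1 and 228 ± 190 CPM, with *Krt5* highest in PyMT *Pcbp1*–/– and *Krt14* in PyMT *Pcbp1*+/+ tumors, and adipocyte markers to 7.28 ± 8.05 and 11.4 ± 15.0 CPM, led by *Plin1* (SD, n = 6 and n = 5). In these lists 0 genes were called at an adjusted p under 0.05 (edgeR), with 1 at an unadjusted p under 0.05, the basal keratin gene *Krt14*. Luminal markers likewise had 0 called, with 0 at an unadjusted p under 0.05.

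Of 76 other genes of Toll-like receptor signaling, 74 were tested; edgeR called 3 lower and 1 higher (adjusted p under 0.05). Negative and positive log2 fold changes numbered 44 and 30, with a median of -0.04. At an unadjusted p under 0.05, 9 of the 74 were lower and 5 higher, beside 10.5% and 8.19% of all genes. The adjusted calls stand beside 1.66% of all genes lower and 0.608% higher. The groups did not overlap for 4 genes that were lower (*Irak1*, *Ikbkb*, *Irf7* and *Sigirr*) and 2 that were higher (*Tlr6* and *Tbkbp1*), beside 2.02% and 1.27% of all genes.

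At the receptor level, 0 of 4 tested Toll-like receptor genes outside the 10 were called (edgeR; 1 lower and 1 higher at an unadjusted p under 0.05). *Tlr6*, whose product also pairs with TLR2 and whose gene neighbours *Tlr1* on chromosome 5 (64952031 to 64960097), ran from 3.62 to 8.55 CPM (median 5.09) across the PyMT *Pcbp1*–/– group, while PyMT *Pcbp1*+/+ replicates 1 to 5 read 3.29, 2.85, 3.50, 3.55 and 1.88 CPM. The log2 fold change was 0.87 (standard error 0.24, edgeR adjusted p = 0.0833), and DESeq2 called it. *Tlr12* had a log2 fold change of -0.69 (edgeR adjusted p = 0.236), *Tlr8* of 0.31 and *Tlr5*, the most abundant of this list and the flagellin receptor, of -0.28. *Tlr11* was under the filter at 0.336 ± 0.310 and 0.502 ± 0.324 CPM.

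Among the co-receptors, *Cd14*, which hands lipopolysaccharide to TLR4, was lower. It ran from 64.7 to 102 CPM (median 77.1) across the PyMT *Pcbp1*–/– group, while PyMT *Pcbp1*+/+ replicates 1 to 5 read 310, 282, 97.3, 117 and 125 CPM. Replicates 1 and 2 of PyMT *Pcbp1*+/+ were far above the rest, and replicate 3 lay within the PyMT *Pcbp1*–/– range. The log2 fold change was -1.19 (standard error 0.28, edgeR adjusted p = 0.0481), and the call was lost with library size only, without a filter, in limma-voom, in both fits of log2 CPM, with the replicate block, with either macrophage covariate and when any 1 of 8 tumors was left out. The block sets same-numbered tumors together, so PyMT *Pcbp1*–/– replicate 6 has no partner in it. Without that tumor alone the *Cd14* call was also lost. *Ly96*, the gene of MD-2, which TLR4 needs to bind lipopolysaccharide, was under the filter at 0.551 ± 0.187 CPM (SD, n = 6) and 0.382 ± 0.234 CPM (SD, n = 5), or 0.446 and 0.309 CPM per kilobase, beside 6.82 and 7.47 CPM per kilobase for *Tlr4*.

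In the cascade after the adaptors, *Ikbkb*, the kinase that marks IκB for degradation, was lower at 76.4 ± 3.20 CPM (SD, n = 6) against 96.5 ± 6.19 CPM (SD, n = 5), with a log2 fold change of -0.34 (standard error 0.07, edgeR adjusted p = 0.0325). *Tbkbp1*, an adaptor that binds the kinase TBK1, was higher at 13.5 ± 1.80 CPM against 8.75 ± 0.327 CPM, with a log2 fold change of 0.62 (standard error 0.12, edgeR adjusted p = 0.0181). Both had no overlap between the groups. The *Ikbkb* call was lost without a filter, with the replicate block, with the macrophage covariate and when any 1 of 8 tumors was left out. PyMT *Pcbp1*–/– replicate 6 has no partner in the block, and the *Ikbkb* call was also lost without that tumor alone. The *Tbkbp1* call was lost with the block, with the macrophage covariate and without PyMT *Pcbp1*–/– replicate 3 or PyMT *Pcbp1*+/+ replicates 1 or 4. It was kept without PyMT *Pcbp1*–/– replicate 6 alone. *Tab2*, the most abundant gene of the kinase and scaffold list, had 150 ± 20.7 and 152 ± 5.32 CPM, a log2 fold change of -0.03 (edgeR adjusted p = 0.907). In that list 1 of 21 genes was lower and 1 higher.

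Among 12 transcription factors only *Irf7* was called, the factor that drives interferon genes after TLR7 and TLR9. It ran from 11.4 to 22.3 CPM (median 14.4) across the PyMT *Pcbp1*–/– group, while PyMT *Pcbp1*+/+ replicates 1 to 5 read 125, 114, 155, 158 and 40.0 CPM. The log2 fold change was -2.89 (standard error 0.31, edgeR adjusted p = 0.00194). Replicate 5 of PyMT *Pcbp1*+/+ was the lowest of its group, as it was for *Tlr9*, *Tlr1* and *Tlr13*. *Jun*, the most abundant of the list, had a log2 fold change of -0.04 (edgeR adjusted p = 0.936), and of the NF-κB genes *Nfkb1* had -0.32 (edgeR adjusted p = 0.202).

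The remaining lists held 0 called genes (edgeR). They were the other adaptors (4 genes, 1 at an unadjusted p under 0.05), the chaperones, transporters and endosomal proteases (10 genes, 1 at an unadjusted p under 0.05), the inhibitors (14 genes, 2 at an unadjusted p under 0.05) and the interleukin receptors that use MYD88 (4 genes, 0 at an unadjusted p under 0.05). Their most abundant genes were *Tirap*, which links MYD88 to TLR2 and TLR4, with a log2 fold change of 0.12, the lysosomal protease gene *Ctsb* with 0.00451, *Tollip* with -0.09 and *Il1rap* with 0.23. With the macrophage sum as a covariate, the pathway genes called were *Cd180*, *Irf7*, *Irf8* and *Tlr12*, all lower. With the sum without *Lyz2* they were *Ikbkb*, *Irak4*, *Irf7*, *Tbkbp1* and *Tlr12*, so that *Cd180* and *Irf8* depended on *Lyz2* in the sum.

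Promoters are shown for 3 genes that varied with the macrophage markers and, for contrast, for *Myd88*, which did not. RefSeq sequences (GRCm38.p6, 250 bases before to 50 after a gene's start) were matched for 7 of the 10 genes with 8 entries; *Tlr4*, *Tlr7* and *Unc93b1* had none. Both strands were searched for GAGGAAGT, the core bound by the myeloid factor PU.1, for GAAA and GAAA with 2 bases of any kind between, the core of the interferon-stimulated response element, and for GGG and TTTCC with 2 bases of any kind between, an NF-κB motif; 3.20%, 3.44% and 1.63% of the 32851 promoters held them. GAGGAAGT was found at *Tlr1* (chromosome 5, 64933574 to 64933581, 23 bases before 1 of its 2 starts) and, on the opposite strand, at *Tlr9* (chromosome 9, 106222608 to 106222615, 10 bases after the start). The interferon response core was found at *Myd88* (chromosome 9, 119340049 to 119340058, 40 bases before the start) and the NF-κB motif at *Tlr3* (chromosome 8, 45410582 to 45410591, 211 bases before the start). *Tlr13*, *Tlr2* and *Ticam1* held none of the 3 in this window. Starts here are those of the promoter entries: for *Myd88* and *Tlr3* they lie 1393 and 700 bases inside the deposited gene bounds given above, so that both matches fall within those bounds. A match is a description of letters and not of a bound site. Capitals mark the matches, and each sequence reads 5′ to 3′ along the gene.
*Tlr9*, chr9:106222348-106222647, plus strand: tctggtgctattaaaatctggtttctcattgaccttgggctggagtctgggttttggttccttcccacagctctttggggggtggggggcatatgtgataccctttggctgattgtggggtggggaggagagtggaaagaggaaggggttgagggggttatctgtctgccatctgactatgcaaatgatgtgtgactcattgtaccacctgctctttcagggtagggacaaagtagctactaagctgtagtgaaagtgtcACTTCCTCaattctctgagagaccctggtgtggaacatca
*Tlr1*, chr5:64933509-64933808, minus strand: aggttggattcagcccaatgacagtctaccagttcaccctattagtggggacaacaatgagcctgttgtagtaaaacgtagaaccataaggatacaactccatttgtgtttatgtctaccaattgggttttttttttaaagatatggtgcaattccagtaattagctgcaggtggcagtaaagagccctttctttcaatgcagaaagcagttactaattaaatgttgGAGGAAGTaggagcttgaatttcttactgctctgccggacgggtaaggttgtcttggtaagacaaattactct
*Tlr13*, chrX:106143025-106143324, plus strand: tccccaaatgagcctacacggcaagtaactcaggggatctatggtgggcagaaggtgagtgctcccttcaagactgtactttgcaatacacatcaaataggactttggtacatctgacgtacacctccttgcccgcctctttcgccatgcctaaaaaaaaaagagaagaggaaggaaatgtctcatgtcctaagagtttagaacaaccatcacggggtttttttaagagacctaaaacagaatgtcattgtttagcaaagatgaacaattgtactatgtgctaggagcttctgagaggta
*Myd88*, chr9:119339969-119340268, minus strand: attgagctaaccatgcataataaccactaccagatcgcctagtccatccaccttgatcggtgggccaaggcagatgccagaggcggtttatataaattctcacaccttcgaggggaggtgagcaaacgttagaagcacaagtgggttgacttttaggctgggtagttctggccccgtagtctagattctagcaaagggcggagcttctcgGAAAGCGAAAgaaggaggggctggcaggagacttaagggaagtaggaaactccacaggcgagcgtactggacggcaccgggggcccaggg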

How the data were processed

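The authors extracted RNA from flash-frozen tumors and sequenced paired-end reads of stranded, poly(A)-enriched libraries. They aligned them to GRCm38 with Bowtie2 and worked in Partek Flow, as their methods and processing notes state; the counting method and annotation are not given in the sources used here. Of the deposited estimated counts, 17.9% to 19.6% per tumor are fractional (over 1e-06 from an integer), and the deposited CPM values scale the counts to the same total in every tumor. Deposited stop positions lie 1 past the end and were shifted.

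Here, rounding of the estimated counts was followed by edgeR 4.0.16 (R 4.3.3): TMM factors, its default filter on low counts, the quasi-likelihood test with genotype as the only term, and Benjamini-Hochberg adjustment over all genes tested. Alternatives used DESeq2 1.42.0, limma 3.58.1, other normalizations and filters, a replicate block, macrophage covariates and each tumor left out. The tests were run first on simulated data. The labels give a single batch. Named genes were the 10 genes, *Pcbp1*, called pathway genes, the most abundant gene of each pathway list and the 3 genes most like each of the 10; others were named after their values were seen. Members and lists were chosen with earlier results of these data known. Exon lengths came from GENCODE for GRCm39, matched by Ensembl identifier, without coordinates. Nothing says whether 1 animal gave more than 1 tumor, so p-values measure the spread between tumors.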

Additional observations from a re-analysis of the deposited data

Results flagged for a closer look

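In groups of 5 or 6 tumors, 4 values lay far from the rest of their group by Dixon's ratio. *Tlr3* had 64.3 CPM in PyMT *Pcbp1*–/– replicate 1, where the next value was 50.1 CPM. *Myd88* had 46.4 CPM in PyMT *Pcbp1*+/+ replicate 1, next to 34.8 CPM. The adipocyte markers summed to 37.8 CPM in PyMT *Pcbp1*+/+ replicate 3, next to 8.11 CPM, and this tumor also had the highest *Tlr9* and *Tlr1* of its group. The basal epithelial markers summed to 58.5 CPM in PyMT *Pcbp1*–/– replicate 2, next to 182 CPM. Among 54 groups of values looked at, chance alone gives about 2.7 such values.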

How the results depend on the processing

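*Pcbp1* stayed called between -3.60 and -3.34 in every alternative run. No member was called in any alternative except *Tlr9* with the macrophage covariates (1 member lower, with or without *Lyz2*). The covariate without *Lyz2* and the covariate with a tumor left out were added after the data were seen. Where values moved or changed sign, the cause was not tested. DESeq2 gave 723 genes lower and 482 higher, with 2 pathway genes higher. Limma-voom gave 1190 and 968, with 2 pathway genes higher, and signs changed for *Tlr1* (-0.27), *Tlr2* (-0.076), *Tlr7* (-0.088), *Tlr13* (-0.15) and *Ticam1* (0.053). Without a filter 1 pathway gene was lower. With the macrophage covariate 0 pathway genes were higher and signs changed for *Tlr1* (-0.63), *Tlr2* (-0.091), *Tlr7* (-0.45), *Tlr13* (-0.39) and *Ticam1* (0.15), and *Tlr3* was at -0.21. Without *Lyz2* in it, 2 pathway genes and 240 genes in all were higher and signs changed for *Tlr1* (-0.20), *Tlr13* (-0.17) and *Ticam1* (0.061). Values also moved without a change of sign: *Tlr7* to 0.0035, *Tlr2* to 0.032 and *Tlr3* to -0.12 in that fit, and *Unc93b1* to -0.38 in limma-voom.

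Same-numbered tumors correlated at 0.164, 0.0642, -0.114, -0.173 and 0.322. Tumors with different numbers were not compared, so these values cannot decide whether the numbers pair tumors. With the replicate block, 118 genes were lower and 42 higher, 1 pathway gene was lower (*Irf7*) and 0 higher, and *Tlr13* was at -0.035. That fit tested 18984 genes, as did the fit without PyMT *Pcbp1*–/– replicate 6, which has no partner in the block. The block fit thus differs from the main fit in that tumor as well as in the block. Leaving out that tumor alone gave 212 genes lower and 69 higher, 1 pathway gene lower and 1 higher, and *Tlr13* at -0.031.

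With each tumor left out in turn, genes lower numbered 144 to 389 and genes higher 41 to 187, pathway genes lower 1 to 2 and higher 0 to 1. *Irf7* was called each time, and *Cd14* only without PyMT *Pcbp1*+/+ replicates 3, 4 or 5. *Ikbkb* was lost without any 1 of PyMT *Pcbp1*–/– replicates 1, 3, 4, 5 and 6 or PyMT *Pcbp1*+/+ replicates 3, 4 and 5, and *Tbkbp1* without PyMT *Pcbp1*–/– replicate 3 or PyMT *Pcbp1*+/+ replicates 1 or 4. Members whose sign changed ranged from -0.15 to 0.43 (*Tlr1*), -0.083 to 0.16 (*Tlr13*), -0.12 to 0.091 (*Ticam1*) and -0.13 to 0.16 (*Unc93b1*). The others ranged from 0.12 to 0.55 (*Tlr7*), 0.067 to 0.22 (*Tlr2*), -0.15 to -0.029 (*Tlr3*), -0.18 to -0.068 (*Tlr4*), -0.76 to -0.30 (*Tlr9*) and -0.23 to -0.11 (*Myd88*). *Tlr7* was at 0.15 with the replicate block, which has no partner for PyMT *Pcbp1*–/– replicate 6, and at 0.12 without that tumor alone. Depth limits *Tlr1* and *Tlr7* most, with 30 and 33 counts in their lowest tumors.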
